A study of Mus musculus with 14 samples.

Results

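The interleukin-1 family genes described here are 8 genes taken by symbol from the array files: the ligand genes Il1a, Il1b and Il18, the receptor antagonist gene Il1rn, the signalling receptor genes Il1r1, Il1rap and Il18rap, and the decoy receptor gene Il1r2. They are 8 of the 20284 genes that the arrays name, and 9 probes measured them, since Il1rap has 2. Cells were purified from C57BL/6 mice and their RNA was hybridised, in a single colour, to 14 oligonucleotide arrays. There were 7 groups with 2 arrays each. No treatment, age or animal number is given in the labels. Wild-type (WT) bone marrow supplied neutrophils (Neu), sorted as CD11b+ Ly6G high cells, and 3 progenitor groups. These were the progenitors of granulocytes and monocytes (GMP), the CD115+ CD135+ progenitor shared by dendritic cells (CDP), and the MHC-II- precursor committed to classical dendritic cells (pre-cDC). WT spleen supplied MHC-II+ classical dendritic cells (cDC) in a CD8+ and a CD4+ group, and bone marrow labelled IRF8KO a second group of GMP, sorted by the same markers as the WT GMP. IRF8 is a transcription factor of the monocyte and dendritic cell lineages. The labels name no allele for the IRF8KO mice, and do not say whether the 2 arrays of a group hold RNA of different animals. The p-values therefore measure only the spread between these arrays, which may be technical.

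Interleukin-1 signals when interleukin-1 alpha or beta binds the type 1 receptor (Il1r1), which then recruits the accessory protein (Il1rap) and, through MyD88 and IRAK kinases, activates NF-kB. The system is held in check by the receptor antagonist (Il1rn), which occupies the receptor without signalling, and by the type 2 receptor (Il1r2), a decoy that binds interleukin-1 but has no signalling domain. Interleukin-18 works in the same way through its own receptor pair, Il18r1 and Il18rap, and is held by the soluble binding protein Il18bp. The precursors of interleukin-1 beta and interleukin-18 are made inside the cell and cut by caspase-1 in inflammasomes, so an RNA level is not a level of released cytokine.

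Levels below are the log2 of the processed signal relative to the 75th percentile of the same array, so 0 is that percentile, and they are compared across groups for 1 probe at a time. A probe counts as measured on an array where the scanner software marked it well above background, which held for 39.4% to 53.6% of probes on the 12 arrays of the larger design and for 59.7% and 61.4% on the 2 CD4+ cDC arrays, which are of a smaller design. The tests are limma fits on the 12 arrays with Benjamini-Hochberg adjustment over all genes tested, and a gene is called at an adjusted p under 0.05. The CD4+ cDC arrays entered no test. The 75th percentile of the signal itself was lowest on the CDP arrays, at 88.8 and 89.2, against 509 to 582 on the 4 GMP arrays. These are bulk samples, in which fewer cells of a type and less RNA per cell cannot be told apart. Against marker lists for the labelled types, all 9 neutrophil markers were well above background on the Neu arrays, with a summed signal of 9751 and 10525 times the percentile, and at most 49.5 on the other 10 arrays of the larger design. All 10 cDC markers were so in CD8+ cDC and 9 in CD4+ cDC, and all 8 GMP and progenitor markers in GMP, CDP and pre-cDC, but also in CD4+ cDC. All 6 plasmacytoid dendritic cell markers were well above background in pre-cDC and CD4+ cDC too. In pre-cDC they summed to 497 and 475, with the cDC markers at 280 and 278. The plasmacytoid sum lay above the cDC sum in every group of the larger design except CD8+ cDC. In Neu it was 350 and 355, with the cDC markers at 16.9 and 17.6. These sums come from different probes. The only Irf8 probe was brighter on the arrays labelled IRF8KO than on the WT GMP arrays, by 1.35 ± 0.07 on the log2 scale (SE, n = 2 per group, limma adjusted p = 1.6e-05), so it does not check the deletion, and directions for that group rest on the label.

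The upstream promoter bases are shown for Il1b, Il1r2 and Il18rap, which were high together on the Neu arrays, and for Il18, which was highest on the CD8+ cDC arrays. Each run holds the 250 bases before the RefSeq start, 5′ to 3′ on the gene's own strand, from build GRCm38.p6: Il1b is at chr2:129371140-129371389 on the minus strand, and Il1r2, Il18rap and Il18 are on the plus strand at chr1:40085843-40086092, chr1:40515112-40515361 and chr9:50554450-50554699. Capitals mark matches to the PU.1 letters GAGGAAG, searched on both strands with the AP-1 letters TGANTCA.
Il1b: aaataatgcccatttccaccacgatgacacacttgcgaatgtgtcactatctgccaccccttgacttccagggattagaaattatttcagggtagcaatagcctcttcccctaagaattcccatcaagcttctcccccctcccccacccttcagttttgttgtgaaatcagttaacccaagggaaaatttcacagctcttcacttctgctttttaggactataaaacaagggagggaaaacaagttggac
Il1r2: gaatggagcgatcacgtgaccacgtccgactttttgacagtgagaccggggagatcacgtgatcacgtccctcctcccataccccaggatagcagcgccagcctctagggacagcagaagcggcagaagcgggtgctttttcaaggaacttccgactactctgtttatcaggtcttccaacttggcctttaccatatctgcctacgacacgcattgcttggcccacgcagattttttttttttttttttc
Il18rap: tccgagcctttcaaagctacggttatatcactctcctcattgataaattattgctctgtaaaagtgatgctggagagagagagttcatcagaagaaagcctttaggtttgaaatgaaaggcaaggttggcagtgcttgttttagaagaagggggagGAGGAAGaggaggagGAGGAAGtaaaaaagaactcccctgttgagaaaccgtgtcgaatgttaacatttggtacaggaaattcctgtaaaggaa
Il18: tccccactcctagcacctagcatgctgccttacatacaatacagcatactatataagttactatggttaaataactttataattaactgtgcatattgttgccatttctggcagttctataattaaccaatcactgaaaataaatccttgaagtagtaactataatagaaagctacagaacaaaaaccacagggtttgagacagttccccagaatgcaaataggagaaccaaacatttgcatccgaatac
PU.1 is a myeloid transcription factor and AP-1 the Fos and Jun dimer. The Il18rap window held the PU.1 letters at 2 places, 88 to 94 and 73 to 79 bases before the start, and the AP-1 letters in none. The windows of Il1b, Il1r2 and Il18 held neither. Over all 32851 RefSeq promoter windows of this length, 10.6% held the PU.1 letters and 6.75% the AP-1 letters. Of the other members, Il1rn held 1 AP-1 match 135 to 141 bases before the start of 1 of its 3 listed starts, and Il1a held both motifs. The windows of Il1r1 and Il1rap held none. A match is only a run of letters, and its absence from these windows is no statement about either factor.

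**Figure D1:**
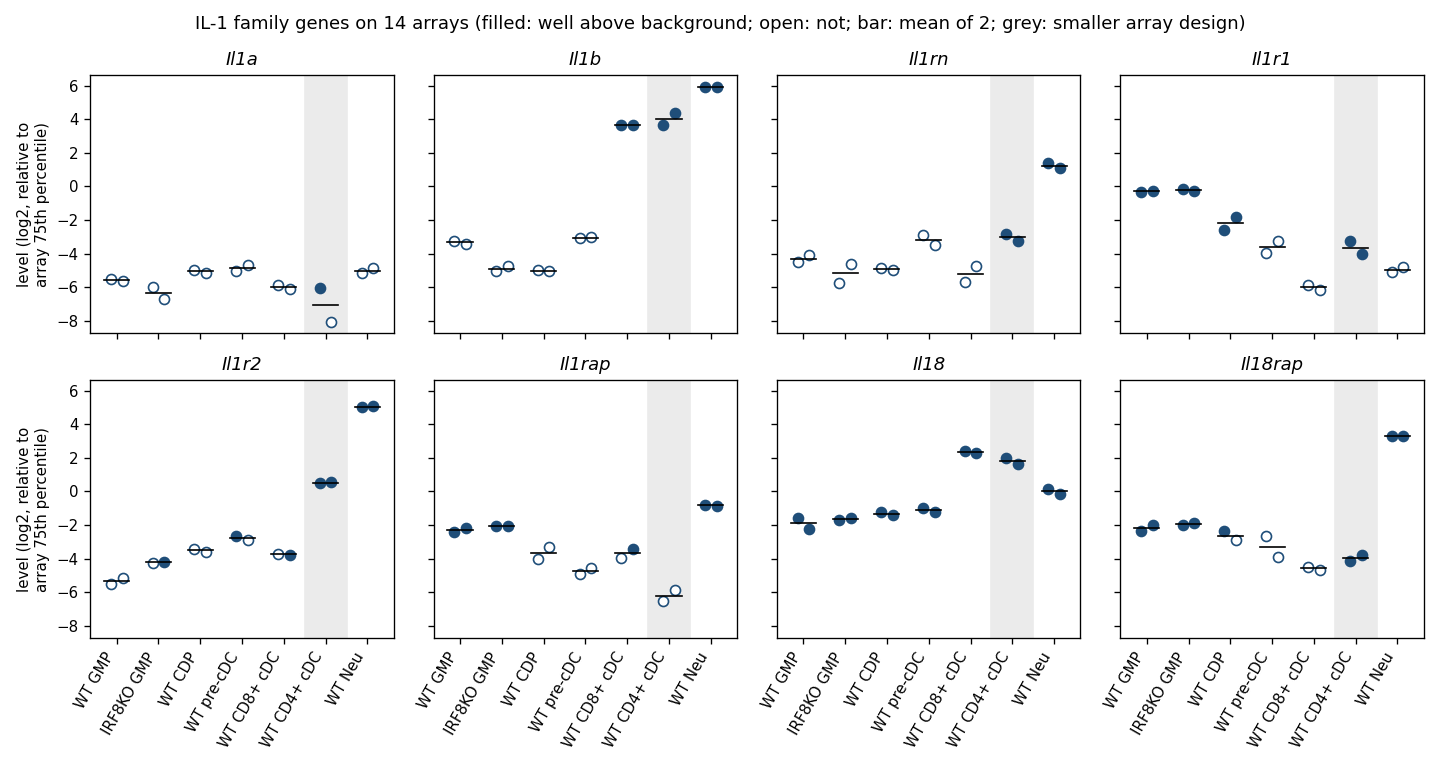
Level of each of the 8 genes (log2, relative to the array's 75th percentile) on each of the 14 arrays, by group. Filled points are well above background, open points are not, and bars are means of 2 arrays. Il1b, Il1rn, Il1r2, Il1rap and Il18rap were highest on the Neu arrays, Il18 on the CD8+ cDC arrays of the larger design, and Il1r1 on the GMP arrays. The shaded CD4+ cDC arrays are of the smaller design and their scale is not the same.

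Among the ligands, Il1b was high in neutrophils and in both kinds of classical dendritic cell, and was not well above background in any progenitor. Its level was 5.90 and 5.95 in Neu, 3.69 and 3.67 in CD8+ cDC, and 3.67 and 4.40 in CD4+ cDC. Elsewhere it ran from -5.05 on a CDP array to -3.02 on a pre-cDC array. The Neu, CD8+ cDC and remaining arrays of the larger design thus formed 3 ranges that did not overlap. The Il1b probe is printed 10 times on each array, and on the Neu and CD8+ cDC arrays all 9 or 10 spots kept were well above background, with a spot SD of at most 0.06. On the WT GMP arrays 4 of 10 spots were, on the IRF8KO GMP arrays 0 and 2, on the CDP arrays none, and on the pre-cDC arrays 2 and 1. WT GMP therefore lay at the edge of detection for Il1b, at -3.26 and -3.41. By the fitted size, Il1b was 612-fold higher in Neu than in WT GMP (limma adjusted p = 9.45e-11). It was at least 94.3-fold higher in CD8+ cDC than in pre-cDC (adjusted p = 1.78e-09). CD8+ cDC had less of it than Neu by a difference of -2.25 ± 0.09 on the log2 scale (SE, adjusted p = 8.49e-08). An at-least fold is used where no array of the dimmer group was well above background, and sets the brighter group's mean against the higher, on each dim array, of the probe's own signal and the lowest signal well above background. For Il1b in WT GMP the probe's own signal was the higher on both arrays. The 612-fold is therefore the fitted size and no bound.

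The 9 neutrophil markers on the array summed to 19.5 and 18.3 times the percentile in CD8+ cDC and to 47.5 and 49.5 in pre-cDC. Genes of the stress and dissociation list, which cell isolation can induce, differed in level within these groups. Fos, a subunit of AP-1, stood at 4.50 in CD8+ cDC and 4.32 in pre-cDC, against -1.24 in CDP and -0.46 in Neu, while the early response gene Ier3 stood at -0.66 in CD8+ cDC and -1.87 in pre-cDC, below its 2.92 in Neu. Of the 11 genes of that list on the array, 5 rose and 5 fell between pre-cDC and CD8+ cDC. Of all genes tested there, 74.9% were called, 40.2% higher and 34.7% lower, so these counts say little about the list. The part of neutrophil RNA and of these genes in the Il1b level was not tested.

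Il18 was well above background on all 14 arrays, the only member for which this held, and it did not follow Il1b. Its level was 2.43 and 2.31 in CD8+ cDC, 2.0 and 1.61 in CD4+ cDC, and 0.15 and -0.13 in Neu. It was -0.97 and -1.22 in pre-cDC, -1.23 and -1.42 in CDP, -1.69 and -1.58 in IRF8KO GMP, and -1.58 and -2.23 in WT GMP. The CD8+ cDC arrays stood above every other array of the larger design, and the Neu arrays above the progenitors, among which the 2 GMP groups overlapped and pre-cDC and CDP lay close together. CD8+ cDC exceeded pre-cDC by 3.47 ± 0.21 on the log2 scale (SE, limma adjusted p = 2.03e-06) and Neu by 2.36 ± 0.21 (adjusted p = 1.00e-05). Neu exceeded WT GMP by 1.91 ± 0.21 (adjusted p = 3.33e-05) and pre-cDC, the next group down, by 1.10 ± 0.21 (adjusted p = 0.0011, in a pair where 89.3% of all genes tested were called). Further down the order, pre-cDC and CDP, CDP and IRF8KO GMP, and IRF8KO and WT GMP did not differ beyond their spread (adjusted p = 0.325, 0.204 and 0.389), where 76.5% of all genes were called in CDP against IRF8KO GMP. CDP exceeded WT GMP by 0.58 ± 0.21 (adjusted p = 0.0321), but without the lower WT GMP array, at -2.23, the difference was 0.26 and was not called. That call was also lost when the percentile came from commonly detected probes only, where the difference was 0.08, when only the 4 arrays entered the fit, and without either CDP array.

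Il1a, the membrane-bound and alarm form of interleukin-1, was not well above background on any of the 12 arrays of the larger design, where its level lay between -6.71 and -4.65. On the CD4+ cDC arrays it was marked well above background on 1 of 2, at -6.07, with -8.04 on the other. No difference in Il1a could be tested, and a transcript below the detection of this probe is not thereby absent.

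The antagonist gene Il1rn was measured in neutrophils and, at a low level, in CD4+ cDC. Its level was 1.37 and 1.07 in Neu and -2.81 and -3.26 in CD4+ cDC. It was not well above background on the other 10 arrays, where it ran from -5.74 to -2.89. Neu thus stood apart from all other arrays. Il1rn was at least 32.2-fold higher in Neu than in WT GMP (limma adjusted p = 4.94e-06) and at least 36.2-fold lower in CD8+ cDC than in Neu (adjusted p = 2.18e-06). Its next group in the order was pre-cDC, which Neu exceeded at least 16.7-fold (adjusted p = 2.33e-05).

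The decoy receptor gene Il1r2 showed the same high group. Its level was 5.04 and 5.07 in Neu and 0.47 and 0.58 in CD4+ cDC. On the other arrays it lay between -5.48 and -2.65, and 1 of the 2 arrays was well above background in each of IRF8KO GMP, pre-cDC and CD8+ cDC, and none in WT GMP and CDP. The Neu arrays did not overlap any other group. Il1r2 was at least 464-fold higher in Neu than in WT GMP (limma adjusted p = 1.94e-10), and lower in CD8+ cDC than in Neu by a difference of -8.80 ± 0.13 on the log2 scale (SE, adjusted p = 4.20e-10). Neu also exceeded pre-cDC, the next in order, by 7.83 ± 0.13 (adjusted p = 6.54e-10).

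The signalling receptor gene Il1r1 ran the other way. Its level was -0.32 and -0.27 in WT GMP, -0.17 and -0.28 in IRF8KO GMP, and -2.56 and -1.79 in CDP. It was not well above background in pre-cDC, CD8+ cDC or Neu, where it lay between -6.16 and -3.27, and was well above background in CD4+ cDC at -3.24 and -4.03. The 4 GMP arrays overlapped each other and lay above every other array. Il1r1 was lower in CDP than in WT GMP by a difference of -1.88 ± 0.29 on the log2 scale (SE, limma adjusted p = 0.000492), at least 1.63-fold lower again in pre-cDC than in CDP (adjusted p = 0.00202), and at least 6.49-fold lower in Neu than in WT GMP (adjusted p = 9.29e-07). Neutrophils therefore had the decoy Il1r2 well above background on both arrays and the signalling receptor Il1r1 on neither, while WT GMP had Il1r1 on both and Il1r2 on neither. The 2 genes are measured by different probes, and their levels are not set against each other.

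Il1rap, the accessory chain that Il1r1 needs for signalling, was highest in neutrophils. Its brighter probe read -0.82 and -0.84 in Neu, -2.41 and -2.18 in WT GMP, and -2.07 and -2.08 in IRF8KO GMP. It was not well above background in CDP, pre-cDC or CD4+ cDC and was so on 1 of 2 arrays in CD8+ cDC, at -3.44. Neu lay above both GMP groups, which lay close together. Neu exceeded WT GMP by 1.47 ± 0.24 on the log2 scale (SE, limma adjusted p = 0.000514) and IRF8KO GMP by 1.25 ± 0.24 (adjusted p = 0.00138, in a pair where 91.3% of all genes were called), and CD8+ cDC were lower than Neu by a difference of -2.86 ± 0.24 (adjusted p = 8.56e-06). Il1rap was at least 1.82-fold lower in CDP than in WT GMP (adjusted p = 0.00112), but the sign turned with normexp background correction, where the difference was 0.61. The second Il1rap probe was well above background on 1 of 14 arrays, and no test was made on it.

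Il18rap, the accessory chain of the interleukin-18 receptor, was high in neutrophils and low but measured in GMP. Its level was 3.32 and 3.29 in Neu, -2.36 and -1.99 in WT GMP, and -2.01 and -1.90 in IRF8KO GMP. CDP gave -2.38 and -2.87, with 1 of 2 arrays well above background, and pre-cDC and CD8+ cDC had none, between -4.65 and -2.68. In CD4+ cDC it was well above background at -4.13 and -3.81. The Neu arrays stood apart from all others, and the 2 GMP groups overlapped. Neu exceeded WT GMP by 5.48 ± 0.36 on the log2 scale (SE, limma adjusted p = 1.22e-06), and Il18rap was at least 153-fold lower in CD8+ cDC than in Neu (adjusted p = 1.48e-07). CDP and WT GMP did not differ beyond their spread (-0.45 ± 0.36, adjusted p = 0.276). With normexp that difference was 0.45 and was called.

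**Figure D2:**
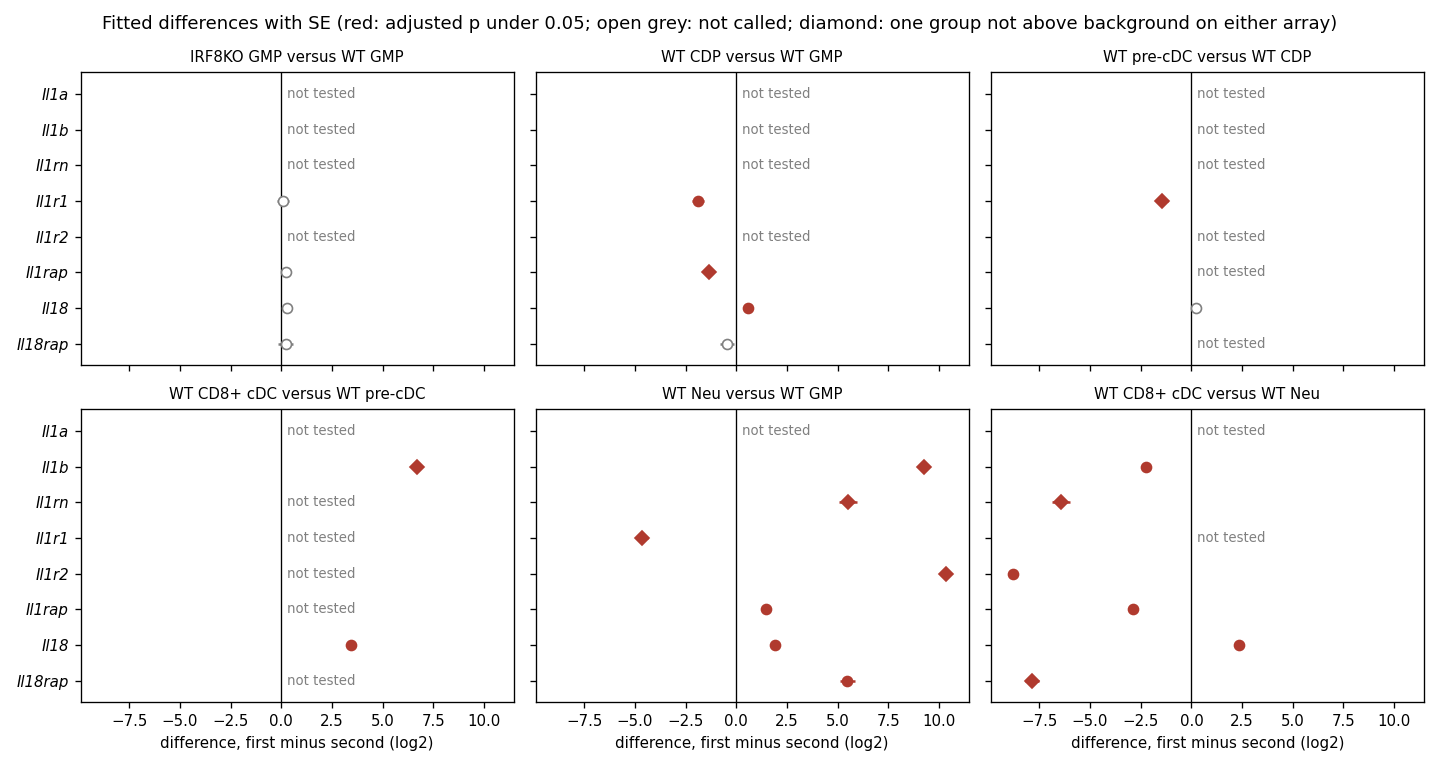
Fitted difference of each gene in each of the 6 comparisons (log2, first group minus second), with bars for 1 SE. Red points were called, open grey points were not, and diamonds mark comparisons in which 1 group was not well above background on either array, so that the fitted size is no bound. In Neu against WT GMP, 6 points lie to the right and 1, Il1r1, to the left. In IRF8KO against WT GMP none of the 4 genes tested was called.

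The 2 comparisons with Neu had the most members called, and also the largest shares of all genes called. In Neu against WT GMP, 7 of the 8 members could be tested, 6 were higher and 1 lower, and 92.2% of all 12520 genes tested were called there (47.1% higher and 45.1% lower), so that being called says little. The median fitted difference was 3.70 on the log2 scale over all 8 members and 5.48 over the 7 tested. Il1b, Il1rn and Il1r2 passed the detection filter only through Neu, where they are high, which raises the median of those tested. Their WT GMP values are below background, so the fitted sizes are no bounds, and these medians are not set against all genes. In CD8+ cDC against Neu, whose arrays lay on the same slide, 6 were tested, 1 was higher (Il18) and 5 lower, with 86.2% of all genes called (42.8% higher and 43.4% lower). The Neu arrays serve in both of these comparisons. In CDP against WT GMP, 4 were tested, 1 was higher (Il18) and 2 lower (Il1r1 and Il1rap), beside 78.1% of all genes (51.2% higher and 26.9% lower). In pre-cDC against CDP, 2 were tested and 1, Il1r1, was lower, beside 84% of all genes (25.3% higher and 58.8% lower). In CD8+ cDC against pre-cDC, both members tested (Il1b and Il18) were higher, beside 74.9% of all genes (40.2% higher and 34.7% lower). A member that passed the detection filter only through its high group had to differ, so these counts describe the members and are not tests. Apart from the 2 comparisons within a slide, slide and group cannot be told apart.

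In the arrays labelled IRF8KO against WT GMP, limma called 0 of the 4 members tested, where 25.7% of all genes were called (15.2% higher and 10.5% lower), and 0 had an unadjusted p under 0.05. The differences were 0.07 for Il1r1, 0.22 for Il1rap, 0.27 for Il18 and 0.22 for Il18rap on the log2 scale. Their 95% intervals ran from -0.60 to 0.75, from -0.35 to 0.79, from -0.21 to 0.75 and from -0.61 to 1.05, so changes within these bounds are not excluded. Both groups lay on 1 slide. In the same comparison the summed neutrophil marker signal was 36.6 and 34.5 on the IRF8KO arrays and 9.56 and 9.47 on the WT GMP arrays, and 6 of the 8 neutrophil markers tested rose. Other marker lists moved as well. All 7 monocyte and macrophage markers tested rose, to a sum of 123 and 130 from 43.8 and 45.5. All 7 erythroid and megakaryocyte markers tested fell, to a sum of 28.0 and 27.3 from 127 and 124. Il1r2, which was high in Neu, was well above background on 1 of 2 IRF8KO arrays, at -4.18, and on neither WT GMP array. The other IRF8KO array read -4.27. Without that array the difference was 1.13, with 1 IRF8KO array left, and Il1r2 passed the detection filter only through the array left. Il1b and Il1rn, also high in Neu, were not well above background on any of these 4 arrays. Il1b read lower on the IRF8KO arrays, at -5.02 and -4.75, than on the WT GMP arrays, at -3.26 and -3.41. Il1rn read -5.74 and -4.60 on the IRF8KO arrays and -4.52 and -4.08 on the WT GMP arrays. Neither difference was tested.

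**Figure D3:**
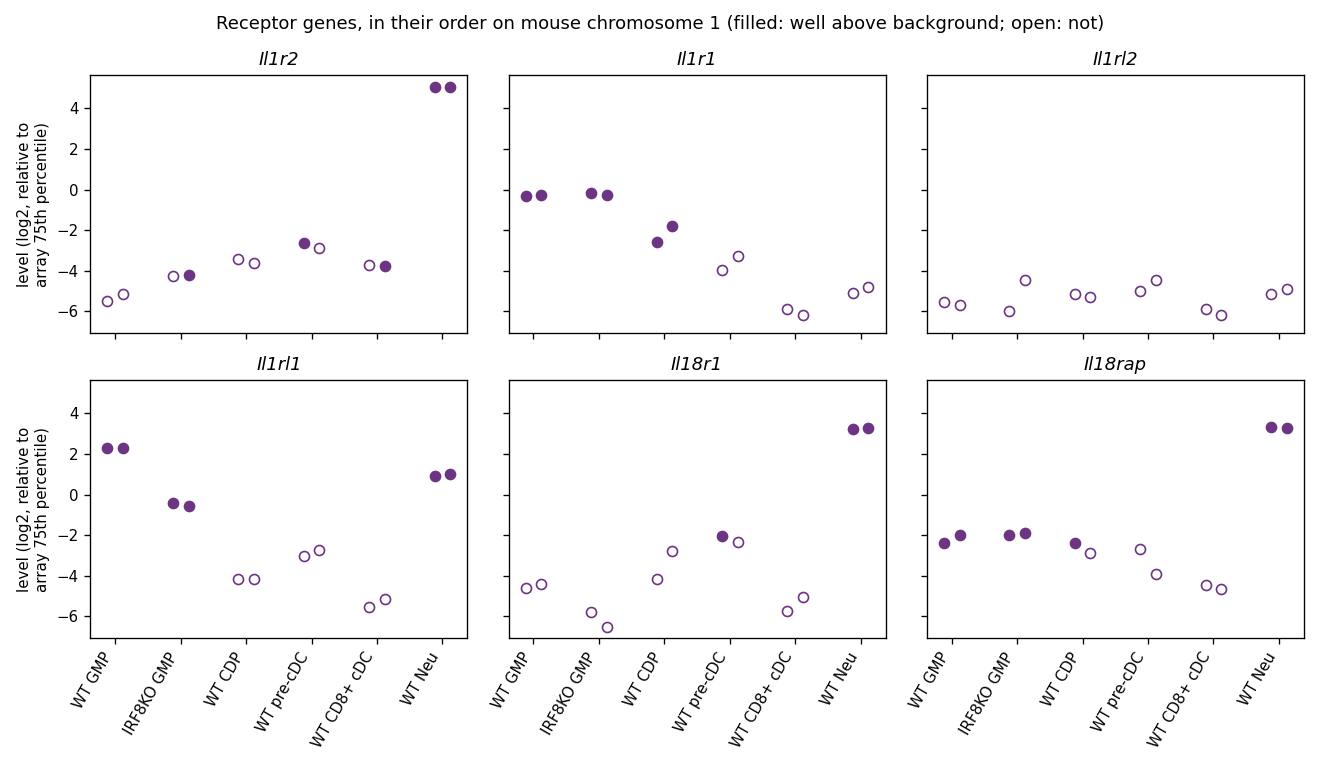
Levels (log2, relative to the array's 75th percentile) of 6 receptor genes that neighbour each other on mouse chromosome 1, 1 panel a gene in chromosomal order, on the 12 arrays of the larger design. Filled points are well above background. Il1r2, Il18r1 and Il18rap have their highest points on the Neu arrays, Il1r1 and Il1rl1 on GMP arrays, and Il1rl2 has no filled point.

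Il1r2, Il1r1, Il1rl2, Il1rl1, Il18r1 and Il18rap follow each other in this order on chromosome 1 in the RefSeq annotation, and neighbours in this row had different patterns. Il18r1, the ligand-binding chain of the interleukin-18 receptor, was high in Neu like its partner Il18rap, but unlike it was not well above background in GMP. It stood at 3.20 and 3.29 in Neu, was well above background on 1 of 2 pre-cDC arrays, and on none in the other 4 groups of the larger design. On the CD4+ cDC arrays, of the smaller design, it was well above background at -1.23 and -0.91. Il18r1 was at least 132-fold higher in Neu than in WT GMP (limma adjusted p = 5.42e-07) and at least 147-fold lower in CD8+ cDC than in Neu (adjusted p = 3.36e-07). Il1rl1, which encodes the interleukin-33 receptor ST2, stood at 2.30 and 2.29 in WT GMP, -0.41 and -0.57 in IRF8KO GMP, and 0.93 and 1.01 in Neu. It was not well above background in CDP, pre-cDC or CD8+ cDC, but was so in CD4+ cDC, at -3.55 and -3.77. It was at least 44.0-fold lower in CDP than in WT GMP (adjusted p = 2.24e-08), so WT GMP had both Il1r1 and Il1rl1 at their highest WT level and CDP had less of both. Basophils and mast cells carry ST2. All 6 of their markers fell in CDP against WT GMP, beside 26.9% of all genes, and 5 of 6 on the IRF8KO arrays, beside 10.5%. These markers summed to 32.4 and 37.1 in pre-cDC and to 4.72 and 4.51 in CDP, and Il1rl1 was not well above background in either group. In Neu they summed to 2.08 and 2.74, with Il1rl1 at 0.93 and 1.01. The part of basophils and mast cells in the Il1rl1 level was not tested. Il1rl2, the interleukin-36 receptor, was not well above background on any of the 12 arrays, and the same held for Il1rapl1 and Il1rapl2.

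Neutrophils also had the inhibitor of interleukin-18. Il18bp was 3.26 and 3.27 in Neu, against -2.16 and -1.94 in WT GMP and -1.15 and -1.09 in CD8+ cDC, and the group ranges did not overlap. Neu exceeded WT GMP by 5.32 ± 0.10 on the log2 scale (SE, limma adjusted p = 8.16e-10). Sigirr, a negative regulator of the family's receptors, was lower in Neu than in WT GMP by a difference of -3.39 ± 0.07 (adjusted p = 9.34e-10). The array names 3 of the 7 other ligands and binding proteins on the list, of which Il18bp alone could be tested.

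Among the 12 genes of processing and release, 8 rose and 3 fell in Neu against WT GMP, where 92.2% of all genes were called. Nlrp3, the sensor of the best known inflammasome, was at least 15.1-fold higher (limma adjusted p = 3.36e-07). Nlrc4, another inflammasome gene, was at least 6.68-fold lower (adjusted p = 1.50e-09), and Nlrp1a was lower by a difference of -2.78 ± 0.06 on the log2 scale. In CD8+ cDC against Neu, 6 of the 12 rose and 5 fell, beside 86.2% of all genes called, with the inflammatory caspase Casp4 lower by a difference of -3.43 ± 0.08 (adjusted p = 2.98e-09) and Nlrp1b higher by 3.28 ± 0.31 (adjusted p = 1.70e-05). In CD8+ cDC against pre-cDC, where Il1b and Il18 rose, 7 rose and 5 fell, beside 74.9% of all genes called, Nlrp1b at least 19.7-fold and Mefv, the pyrin gene, by 1.88 ± 0.05.

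Of the 14 genes of receptor signalling, 10 rose and 3 fell in Neu against WT GMP, again beside 92.2% of all genes. The adaptor Myd88 rose by 3.08 ± 0.06 on the log2 scale (limma adjusted p = 1.24e-09) and the kinase Irak4 by 2.39 ± 0.09 (adjusted p = 3.05e-08). In CD8+ cDC against Neu, 2 rose and 9 fell (86.2% of all genes called), among them Irak3, an inhibitory member of the IRAK family, which was at least 206-fold lower (adjusted p = 2.58e-09), and the ubiquitin ligase gene Peli2, at least 38.0-fold lower (adjusted p = 1.32e-08). Irak3 was measured in both GMP groups, CDP, pre-cDC and CD4+ cDC too, and among these groups was lower in CDP than in WT GMP by a difference of -2.67 ± 0.19 (adjusted p = 4.97e-06), as Il1r1 was.

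Of 12 NF-kB factors and inhibitors tested in Neu against WT GMP, 10 rose and 2 fell, where 92.2% of all genes were called. The 4 that rose most were 3 inhibitors and the subunit Relb: Nfkbiz, an atypical inhibitor induced by interleukin-1, by 4.32 ± 0.13 on the log2 scale (limma adjusted p = 1.19e-08), Nfkbia by 3.32 ± 0.05 (adjusted p = 2.76e-10), Relb by 2.98 ± 0.12 (adjusted p = 5.73e-08) and Nfkbie by 2.53 ± 0.05 (adjusted p = 9.57e-10). With array medians 7 rose and 2 fell. In CD8+ cDC against Neu, 7 of 13 rose and 4 fell (86.2% of all genes called), with Relb higher by 2.39 ± 0.12 (adjusted p = 2.83e-07) and Nfkbiz lower by a difference of -1.81 ± 0.13. Of the 13 inflammatory targets on the array, 7 could be tested in Neu against WT GMP, of which 5 rose and 2 fell, beside the same 92.2%. Lcn2, a neutrophil granule gene, was higher by 9.76 ± 0.07, and Tnf by 4.16 ± 0.09. Il6 was lower, by a difference of -3.09 ± 0.57, with 1 of 2 Neu arrays well above background. In IRF8KO against WT GMP, 4 of 8 rose and 1 fell, where 25.7% of all genes were called, and Saa3, an acute-phase gene, was at least 10.4-fold higher (adjusted p = 1.26e-05).

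Along the path from GMP to cDC, where Il1r1 fell, the lists did not move as one. In CDP against WT GMP, 8 of 10 genes of processing and release rose and 2 fell, beside 78.1% of all genes called (51.2% higher). Pycard, the shared inflammasome adaptor, rose by 2.69 ± 0.05 on the log2 scale (limma adjusted p = 1.38e-08) and Casp1, the enzyme that cuts both cytokines, by 1.01 ± 0.05 (adjusted p = 4.89e-07), while Casp4 was lower by a difference of -1.37 ± 0.08. On the values of the authors' table, 5 rose and 3 fell. In pre-cDC against CDP, where 84% of all genes were called (25.3% higher and 58.8% lower), 1 of 10 rose and 9 fell, Casp1 by a difference of -1.52 ± 0.05 (adjusted p = 1.42e-07), beside a median of -0.49 over all genes. There 6 of 10 fell with the percentile from commonly detected probes. All 6 inflammatory targets tested rose there, the chemokine gene Ccl4 at least 54.5-fold (adjusted p = 1.45e-07) and Ccl3 by 4.93 ± 0.15, with 1 of 2 CDP arrays well above background. With quantile normalization 5 of these 6 rose.

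Of the 11 stress and dissociation genes, 9 rose and 1 fell at the same step, where 25.3% of all genes were higher. Fosb was at least 75.7-fold and Zfp36, which destabilises cytokine RNA, at least 56.0-fold higher (limma adjusted p = 1.80e-07 and 3.78e-07). Neu had 9 of 10 higher than WT GMP, beside 47.1% of all genes, with Zfp36 at least 63.1-fold higher (adjusted p = 1.83e-07), and Fos was higher on the IRF8KO than on the WT GMP arrays by 2.45 ± 0.05 (adjusted p = 4.05e-07). The part of these genes in the levels of Il1b, Ccl3 and Ccl4 was not tested.

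CD4+ and CD8+ cDC can be set side by side by value only, because the arrays differ in design. The 75th percentile of the larger design was 0.90 to 1.28 higher on the log2 scale when taken over the 39429 probes both designs hold, so that a difference of this size can come from the choice of scale. On the percentile over shared probes, CD4+ minus CD8+ cDC was 1.37 for Il1b and 5.28 for Il1r2, which was well above background on 1 of 2 CD8+ cDC arrays. On each array's own percentile these differences were 0.36 and 4.27. For Il18 the sign depended on this choice, at 0.45 and -0.57. Il1rn, Il1r1 and Il18rap were well above background on both CD4+ cDC arrays and on neither CD8+ cDC array, so no difference is given for them, and the arrays of the smaller design detected a larger share of their probes. CD4+ cDC underwent magnetic separation with no flow sort, and all 9 neutrophil markers were well above background on both of their arrays, against 6 of 9 in CD8+ cDC. On the shared scale the neutrophil markers summed to 26.0 and 34.0 in CD4+ cDC, 8.99 and 9.74 in CD8+ cDC, and 5231 and 5627 in Neu. The monocyte and macrophage markers, 8 genes, summed to 91.0 and 104.5 in CD4+ cDC and 12.6 and 13.5 in CD8+ cDC. The erythroid and megakaryocyte markers summed to 303 to 405 in CD4+ cDC and 89.2 to 93.9 in CD8+ cDC. On that scale Il1r2 was 0.53 in CD4+ cDC and 4.15 in Neu, and Il1b 4.03 and 5.03. The part of these other cells in the CD4+ cDC levels was not tested.

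**Figure D4:**
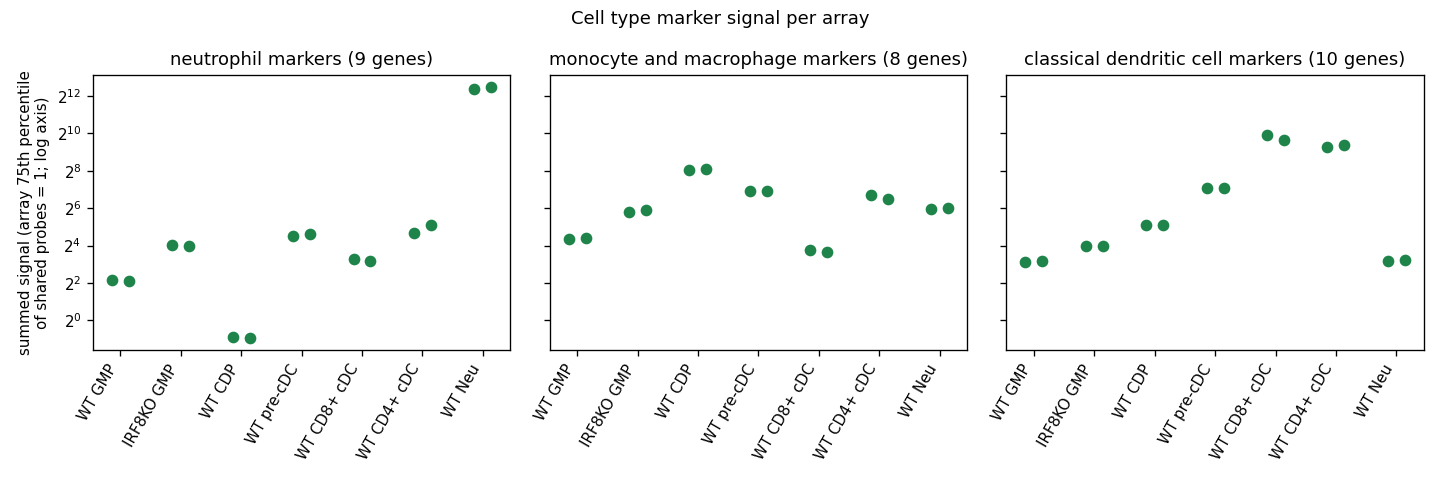
Summed signal of the neutrophil, monocyte and macrophage, and classical dendritic cell markers on each array (log axis, relative to the 75th percentile over probes of both designs). The Neu arrays are highest for neutrophil markers, at 5231 and 5627, the CD4+ cDC arrays lie above the CD8+ cDC arrays for the neutrophil and the monocyte markers, and both cDC groups are highest for the dendritic cell markers.

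The genes nearest to each member in pattern were found by Pearson correlation over the 6 group means of the larger design (12 arrays), among genes whose range reached at least a share of 0.5 of the member's own. The 6 means share their arrays and their scale, and with so few points many genes lie near 1. Nearest to Il1b were 5830428M24Rik (r = 0.994), Ublcp1 and Ankrd33b. Nearest to Il1r2 were Pcp4, Adpgk and Cd101 (r = 0.994 to 0.993), to Il1rn Lyve1, Sbpl and Phospho1, to Il1rap Ptgs1, Casz1 and Acadsb, and to Il18rap 9530077C05Rik, F5 and Dgat1. Nearest to Il1r1 were Adgrl4, Car3 and 4930520O04Rik, with r of 0.998, and to Il18 Flacc1, Prodh2 and Bcl2a1c. The neighbours of Il1b, Il1r2, Il1rn, Il1rap and Il18rap had their highest mean in Neu, and those of Il18 in CD8+ cDC.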

How the data were processed

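RNA of sorted cells was labelled and hybridised to single-colour Agilent arrays. The deposited scanner files hold spot intensity values made by Agilent Feature Extraction 10.7.3.1, per the file headers, which give a processed signal after background subtraction and detrending within the array. The authors' deposited table holds intensities (how it was made is not given here) with the same sorted values in every column, and each column follows its array's processed signal (Spearman 0.999999).

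Control and outlier spots were left out, spots of a probe averaged on the log2 scale, and each array's 75th percentile subtracted. A probe counted as well above background if the scanner software marked a share of 0.5 or more of its spots. Probes were named through RefSeq accessions (GRCm38.p6): 26762 had 1 symbol and 28919 none. A gene took its brightest probe. No spot was saturated. Fits used limma 3.58.1 (lmFit, eBayes, two-sided; total degrees of freedom 7.53) in R 4.3.3 on 12 arrays in 6 groups, testing genes for which both arrays of either group compared were well above background. SE comes from the fit. On simulated data for CDP against WT GMP (13552 genes, 100 changed at each size), 69% of changes of 1 and 92% of changes of 2 (log2) were recovered, with 5 false calls. In the real comparison 78.1% of all genes tested were called, so these rates do not carry over to it. Figures used Python 3.11.15 and matplotlib 3.10.9.

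The members, the gene lists and the naming rule (all members, the 2 to 4 most changed called genes of each list, the 3 nearest patterns) were chosen with earlier results of these data known. The text departs from this rule in places, so the list genes it names are not always the most changed. For example, Peli1 stood at 4.20 in Neu and 1.61 in WT GMP, and is not named in that comparison. Mefv stood at 2.81 in pre-cDC and 4.63 in CDP, and is not named there either. Scaling, background correction, the detection filter, the samples fitted, a replicate block and each replicate were varied. Normexp used spot medians, since the files give no spot means. Ly6C+ monocytes were not analysed here.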

Additional observations from a re-analysis of the deposited data

How the results depend on the processing

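With 2 arrays a group, precision is limited by the number of arrays and, for most members in most groups, by signal over background. Testing dim probes too, with no filter, moved the members called to 2 in IRF8KO against WT GMP, 5 in pre-cDC against CDP and 8 in CD8+ cDC against pre-cDC. With the filter, 25.7%, 84% and 74.9% of all genes were called in these comparisons. The neighbouring groups that differed in the order of levels went from 11 of 18 tested to 20 of 40, where the larger number tested follows by construction. The member counts in this paragraph describe the settings and are no result about the members. With a percentile taken from commonly detected probes only, 2 members were called in pre-cDC against CDP, Il18 among them at 0.76. That percentile moved the median of all genes in CDP against WT GMP from 0.29 to -0.21. Leaving out 1 array gave 0 to 1 members in IRF8KO against WT GMP, 1 to 2 in pre-cDC against CDP (2 without the second pre-cDC array) and 2 to 4 in CD8+ cDC against pre-cDC (4 without the first CD8+ cDC array). Over all genes, the 3120 calls of IRF8KO against WT GMP became 1485 with array medians and 1913 to 2011 without 1 array. The 2 members that reversed did so with normexp in CDP against WT GMP, Il1rap to 0.61 (adjusted p = 4.42e-05) and Il18rap to 0.45 (adjusted p = 0.00138); the cause was not tested. No member count changed by over 1.5 times with quantile normalization, array medians, normexp, the authors' table, a mean over a gene's probes or only the 4 arrays compared.

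Groups share replicate numbers, but samples with the same number did not deviate together (r from -0.06 to 0.04 over 15 pairs of groups). With 2 arrays a group, this cannot exclude that such samples share a source. With the replicate number as a block the members called were 0, 3, 1, 2, 7 and 6, as without it, and no member's call changed. The gene names of the array files were planned as an alternative and not run, because no gene name column was used here. The CD4+ minus CD8+ cDC difference in the authors' table was 1.76 for Il1b, 5.41 for Il1r2 and 0.54 for Il18.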
